A study of Arabidopsis thaliana with 35 samples.

Results

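The J-domain co-chaperones of Arabidopsis thaliana (DnaJ or Hsp40 proteins) were followed through a temperature and circadian clock experiment on whole 12-day-old seedlings. A gene was taken as a member where its deposited short description contained "dnaj" or "j-domain" in any case, with JAC1, ERDJ3B and ERDJ3A left aside, which gave 125 of the 37898 genes in the tables. The description matched 128 genes before these 3 were left out. RNA was measured in 35 libraries after 1 h at 37 °C, at 10 °C or at the growth temperature of 22 °C. At ZT6 (6 h after lights on) the groups were the prr7prr9 mutant (prr7-3/prr9-1) and WT (Col-0), each at the 3 temperatures with 2 libraries a group. At ZT1 (1 h after lights on) the groups were the cca1lhy mutant (cca1-1/lhy-20) and WT, with 4 libraries a group and 3 for WT at 10 °C. All plants grew in cycles of light and dark at 22 °C and were taken as whole seedlings, so a level is an average over all their tissues. CCA1 and LHY are morning transcription factors of the clock and PRR7 and PRR9 are repressors of the day phase, and each mutant lacks full function of a pair of them in every cell. Each mutant is represented by 1 combination of alleles.

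J-domain proteins are the co-chaperones of Hsp70. The J domain carries a conserved His-Pro-Asp motif that stimulates the ATPase of Hsp70, and the remaining parts of the protein bring clients or choose the place of action. Type A members also have cysteine-rich zinc finger repeats, type B members lack these repeats but keep the client-binding part, and the remaining members share the J domain only. In plants, members work in the cytosol, the endoplasmic reticulum, mitochondria and chloroplasts, and some are known targets of the heat shock response.

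The coding sequence of the His-Pro-Asp motif is shown for 6 members on which the results below turn, since it is the feature that makes them co-chaperones. The sequences are from RefSeq on build TAIR10.1, written 5′ to 3′ on the coding strand, with the 3 codons for His, Pro and Asp in capitals. All 6 genes lie on the minus strand. J3 is at chr3:15870622-15870981 and J2 at chr5:7305161-7305590, where introns of 261 and 331 bases were left out. AT1G71000 is at chr1:26769953-26770051, AT2G20560 at chr2:8849669-8849767, DJC24 at chr2:7767320-7767418 and J11 at chr4:17049864-17049962, each within exon sequence.
J3: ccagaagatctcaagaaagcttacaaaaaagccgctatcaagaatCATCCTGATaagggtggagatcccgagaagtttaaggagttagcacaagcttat
J2: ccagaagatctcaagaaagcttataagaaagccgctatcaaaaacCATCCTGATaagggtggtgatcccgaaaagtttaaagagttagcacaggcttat
AT1G71000: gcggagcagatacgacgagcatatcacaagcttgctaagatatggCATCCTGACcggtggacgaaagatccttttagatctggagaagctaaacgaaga
AT2G20560: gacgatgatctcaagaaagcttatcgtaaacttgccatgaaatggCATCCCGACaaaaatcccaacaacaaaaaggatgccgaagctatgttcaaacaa
DJC24: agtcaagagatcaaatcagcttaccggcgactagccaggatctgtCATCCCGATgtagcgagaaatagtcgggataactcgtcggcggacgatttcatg
J11: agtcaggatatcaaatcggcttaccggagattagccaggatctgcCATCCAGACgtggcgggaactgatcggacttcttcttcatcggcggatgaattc
Translated from RefSeq, 91 of the 125 members held a His-Pro-Asp motif without zinc finger repeats, 7 held both (ATJ1, DJA4, DJA5, DJA6, DJA7, J2 and J3), 8 held 3 or 4 repeats without the motif, and 19 held neither, such as ARC6 of chloroplast division and AT2G20550. J2 and J3 shared 91.8% of 417 aligned residues, AT2G20560 and AT4G28480 87.2%, DJC24 and J11 73.1%, AT1G71000 and AT3G14200 42.4%, and J11 and J8 27.0%. AT5G50510 and AT5G50620 repeat each other in all of their sequence and AT2G05230 and AT2G05250 in most of it, so the authors' counting could have split their reads and they are given no result of their own.

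The deposited values are log2 CPM, normalized separately at ZT6 and ZT1, so levels are compared only within a time of day. The libraries held an estimated 10.7 to 29.4 M reads at ZT6 and 1.08 to 9.87 M reads at ZT1, read from the spacing of low values. Because 5 reads were added to every gene, a gene without reads stands at −1.68 at ZT6 and at 1.23 at ZT1, and changes of weak genes are compressed. Of the 125 members, 121 passed the filter on low values at ZT6 and 117 at ZT1, and all 117 of these were among the 121. AT1G09260, AT1G15757, AT5G50510 and AT5G50620 passed only at ZT6, and AT2G20465, AT2G40995, AT4G08028 and AT4G19580 at neither time. The members that passed had a median mean level of 3.96 log2 CPM at ZT6 and 3.92 at ZT1, and J3 had the highest mean level of the members at both times (8.65 and 9.02). The genes of leaf cells used as markers reached group means of 6.11 to 14.04 at ZT6 and 6.85 to 14.37 at ZT1, and those of root cells −1.43 to 5.88 and 1.23 to 5.76. CCA1 was at 2.03 to 5.29 in the 12 cca1lhy libraries, against 8.26 to 9.64 in the 11 WT libraries of ZT1, and PRR7 at 1.73 to 3.70 in the 6 prr7prr9 libraries, against 6.52 to 8.54 in the 6 WT libraries of ZT6. The ranges of LHY (5.94 to 6.99 in cca1lhy, 6.74 to 9.86 in WT) and PRR9 (2.60 to 5.37 in prr7prr9, 2.73 to 6.60 in WT) overlapped over the 3 temperatures. At ZT6, prr7prr9 37 °C replicate 3, 22 °C replicate 3 and 10 °C replicate 2 and WT 37 °C replicate 2 had the most genes above the lowest value (27329 to 29244). Replicate numbers at ZT6 are those of the columns of the deposited table (2 and 3 at 37 and 22 °C, 1 and 2 at 10 °C). They differ from the numbers in the sample labels (1 and 2), so the columns were assigned to groups and not to single samples.

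After 1 h at 37 °C, AT1G71000, AT2G20560, AT1G72416, AT3G14200 and J3 were among the 8 largest rises in WT at both times. J2 and AT2G33735 were among the 8 at ZT6, and J20, AT1G56300 and AT5G03030 at ZT1. A member was called a DEG at a Benjamini-Hochberg adjusted p under 0.05 over all genes (limma) and a log2 fold change (LFC) over 1 in size. At ZT6, 17 of the 121 members tested were higher (14%) and 7 lower (5.79%), beside 7.25% of all genes higher and 7.16% lower. At ZT1, 18 of 117 were higher (15.4%) and 2 lower (1.71%), beside 6.97% and 6.30% of all genes. The higher lists shared 14 genes, of 17 at ZT6 and 18 at ZT1, and the short lower lists none of 7 and 2. Overlaps, here and below, were not counted over all genes, so they have no background share beside them. The median LFC was −0.03 over the members and 0.00 over all genes at ZT6, and 0.04 and −0.06 at ZT1. At an unadjusted p under 0.05 stood 56 of 121 members at ZT6 (46.3%, beside 32.9% of all genes) and 56 of 117 at ZT1 (47.9%, beside 41.5%). In these bulk samples a lower level from fewer cells of a type cannot be told apart from less RNA per cell. The ZT6 count fell to 14 without WT 37 °C replicate 3, and to 4 (AT2G20560, AT2G33735, J3 and 1 other) without the 4 libraries with most genes, where single libraries were taken to vary like the other groups. With only the WT groups at 37 and 22 °C in the fit, 5 of the 24 calls at ZT6 remained, among them AT1G71000, AT2G20560, AT2G33735 and J3, while AT1G72416 (adjusted p = 0.0585), AT3G14200 (0.0589) and J2 (0.0589) missed the threshold.

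AT1G71000 is a short protein of 165 residues with a J domain at its start. At ZT6 it stood at 9.71 and 9.19 log2 CPM in prr7prr9 and at 9.12 and 9.40 in WT at 37 °C, against −0.08 and 0.09 in prr7prr9 and 1.1 and 0.41 in WT at 22 °C. At ZT1 it stood at 8.05, 7.86, 8.17 and 7.59 in cca1lhy and at 6.60, 6.56, 7.29 and 7.34 in WT at 37 °C, against 1.50, 1.88, 1.52 and 1.23 in cca1lhy and 1.36, 1.23, 1.23 and 1.23 in WT at 22 °C. No library at 22 °C came near those at 37 °C, and at ZT1 the gene was at the level of no reads in 3 of the 4 WT libraries at 22 °C. The LFC of 37 °C against 22 °C was 9.45 ± 0.66 (SE) in prr7prr9 and 8.51 ± 0.66 in WT at ZT6 (adjusted p = 1.65e-05 and 3.21e-05, limma), and 6.39 ± 0.20 in cca1lhy and 5.69 ± 0.20 in WT at ZT1 (5.54e-18 and 4.92e-17). All 4 cca1lhy libraries at 37 °C lay above all 4 of WT, a difference of 0.97 ± 0.20 (adjusted p = 0.00330) that is under the fold threshold, and the interaction of genotype with heat was not called (0.70 ± 0.28, adjusted p = 0.281). Without the 4 ZT6 libraries with most genes the rises were 9.78 in prr7prr9 and 8.65 in WT (adjusted p = 0.123 and 0.0984).

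Its promoter was searched for 4 motifs over the 250 bases before and 50 after the annotated gene start, on both strands: the heat shock element GAANNTTCNNGAA or its other phase TTCNNGAANNTTC, the evening element AAAATATCT, the G-box CACGTG and the DRE core CCGAC. The heat shock element is bound by heat shock factors and the evening element is bound by CCA1 and LHY, as known from Arabidopsis. AT1G71000 was the only one of the 125 members whose promoter held the heat shock element (0.8%, beside 0.481% of all 27443 promoters of RefSeq). Its upstream sequence is shown because this gene had the largest rise at ZT6. It runs over bases −250 to −1, at chr1:26770178-26770427 on the minus strand of TAIR10.1, with a run of 18 bases at −131 to −114 that holds both phases of the heat shock element in capitals. An evening element also begins at −176 on one strand and at −103 on the other.
AT1G71000 upstream: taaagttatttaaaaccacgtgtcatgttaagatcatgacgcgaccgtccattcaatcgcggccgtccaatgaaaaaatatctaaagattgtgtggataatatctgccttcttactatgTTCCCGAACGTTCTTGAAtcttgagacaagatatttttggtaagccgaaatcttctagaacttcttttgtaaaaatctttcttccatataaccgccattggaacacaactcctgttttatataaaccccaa
No other member held these letters in its window, including AT2G20560, J2 and J3, which says only that this spelling was not found there. The G-box was in 4.80% of member promoters and 7.68% of all promoters, and the DRE core in 14.4% and 15%.

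**Figure D1:**
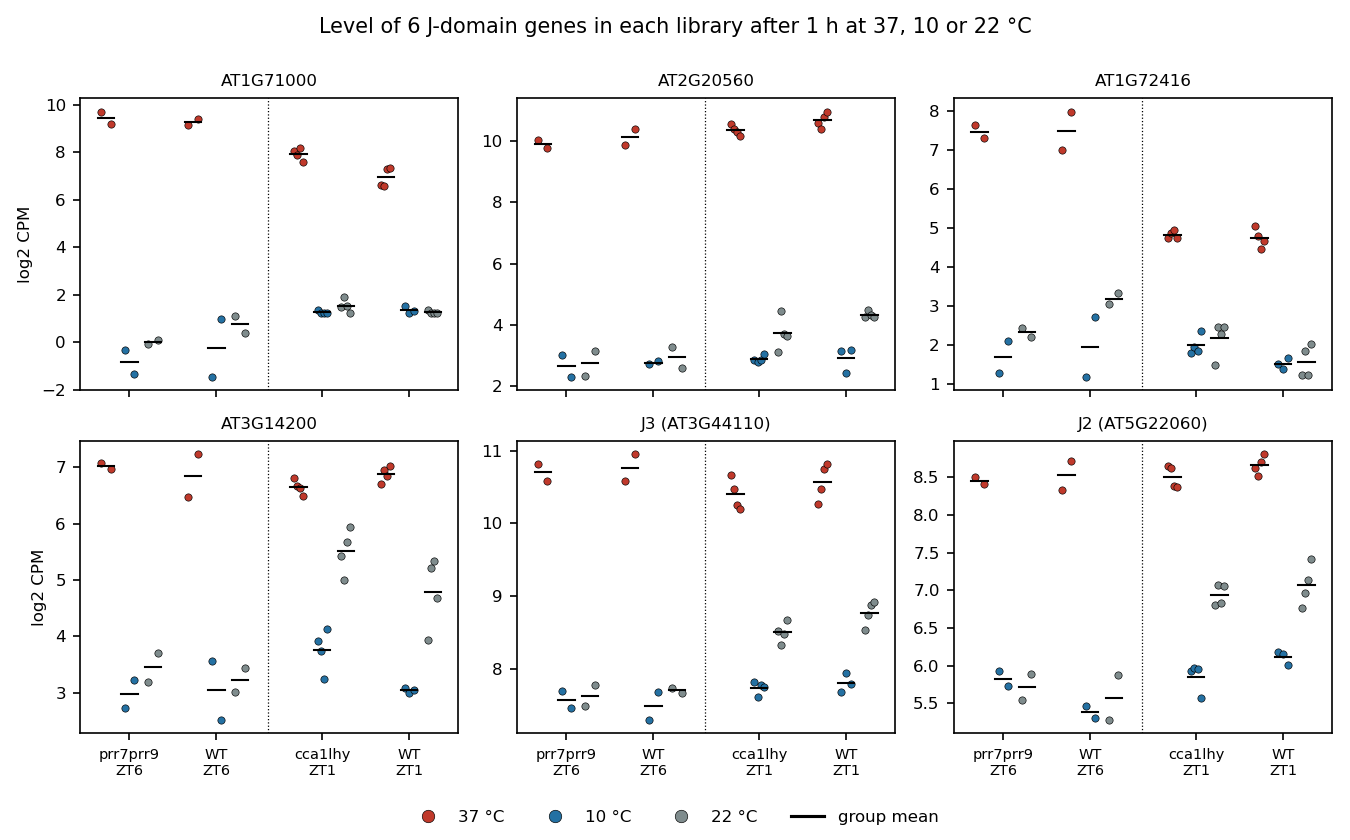
Level (log2 CPM, vertical axes) of AT1G71000, AT2G20560, AT1G72416, AT3G14200, J3 and J2 in each library at 37, 10 and 22 °C for prr7prr9 and WT at ZT6 (left of the dotted line) and cca1lhy and WT at ZT1 (right), where points are libraries and bars group means. All libraries at 37 °C lie above those at 22 °C of the same genotype and time, and the levels of the 2 times come from separately normalized tables. AT1G71000 stands between 6.56 and 9.71 at 37 °C.

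Type B members were led by AT2G20560, a cytosolic Hsp40 of 337 residues. At ZT6 it had 10.04 and 9.79 log2 CPM in prr7prr9 and 9.87 and 10.39 in WT at 37 °C, against 2.34 and 3.17 in prr7prr9 and 3.29 and 2.61 in WT at 22 °C. At ZT1 it had 10.57, 10.40, 10.29 and 10.18 in cca1lhy and 10.59, 10.40, 10.78 and 10.97 in WT at 37 °C, against 3.11, 4.46, 3.71 and 3.65 in cca1lhy and 4.27, 4.50, 4.33 and 4.28 in WT at 22 °C. The groups were far apart in every genotype, and the gene was more than 6 log2 units higher at 37 °C. The LFC was 7.16 ± 0.34 in prr7prr9 and 7.18 ± 0.34 in WT at ZT6 (adjusted p = 1.82e-06 and 1.93e-06) and 6.63 ± 0.20 in cca1lhy and 6.34 ± 0.20 in WT at ZT1 (5.47e-18 and 1.15e-17). Its near copy AT4G28480 rose far less, by 1.62 ± 0.22 in prr7prr9 and 2.01 ± 0.22 in WT at ZT6 and 1.71 ± 0.14 in cca1lhy and 1.79 ± 0.14 in WT at ZT1. AT4G28480 stood at 6.15 and 6.49 log2 CPM in WT at 37 °C, against 4.00 and 4.61 at 22 °C at ZT6, and at 6.78, 6.88, 7.16 and 7.27 against 5.15, 4.94, 5.25 and 5.58 at ZT1. AT2G20550, which shares 81.2% of 239 aligned residues with AT2G20560 and holds no His-Pro-Asp motif, rose by 1.14 ± 0.31 at ZT6 and 1.66 ± 0.25 at ZT1 in WT. Over the 8 type B members, 3 rose and none fell in WT at ZT6 (median LFC 0.75), and 4 rose and none fell at ZT1 (0.98). The other called members were AT5G25530 at both times and AT5G01390 at ZT1 (1.17 ± 0.20). The calls of AT5G25530 at ZT6 (1.01 ± 0.26) were lost without any 1 of the 4 WT libraries at 37 and 22 °C (LFC 0.87 to 1.16, adjusted p 0.0504 to 0.128) and in prr7prr9 (1.14 ± 0.26) without 37 °C replicate 3 (0.92) or 22 °C replicate 2 (1.00). At ZT1 its call in WT (1.09 ± 0.32) was lost without 37 °C replicate 2 (0.88) or 22 °C replicate 1 (0.80), and in cca1lhy (1.11 ± 0.32) without 22 °C replicate 2 (0.88).

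The cytosolic type A pair J2 and J3, farnesylated Hsp40 proteins that work with cytosolic Hsp70, rose in all 4 genotype and time settings and more at ZT6 than at ZT1 in WT. J3 had 10.82 and 10.59 log2 CPM in prr7prr9 and 10.59 and 10.95 in WT at 37 °C at ZT6, against 7.50 and 7.78 in prr7prr9 and 7.75 and 7.67 in WT at 22 °C. At ZT1 it had 10.67, 10.47, 10.26 and 10.20 in cca1lhy and 10.27, 10.47, 10.74 and 10.82 in WT at 37 °C, against 8.53, 8.34, 8.48 and 8.67 in cca1lhy and 8.53, 8.74, 8.88 and 8.92 in WT at 22 °C. The groups did not overlap, and the level at 22 °C was the highest among the members that rose. The LFC of J3 was 3.07 ± 0.22 in prr7prr9 and 3.06 ± 0.22 in WT at ZT6 (adjusted p = 1.67e-05 each) and 1.89 ± 0.14 in cca1lhy and 1.81 ± 0.14 in WT at ZT1 (1.27e-10 and 2.54e-10). J2 had 8.34 and 8.72 log2 CPM in WT at 37 °C at ZT6, against 5.28 and 5.87 at 22 °C, and 8.62, 8.52, 8.71 and 8.80 at ZT1, against 6.76, 6.97, 7.13 and 7.41. The LFC of J2 in WT was 2.95 ± 0.22 at ZT6 and 1.59 ± 0.13 at ZT1, and it was 2.74 ± 0.22 in prr7prr9 and 1.57 ± 0.13 in cca1lhy. The WT responses differed between ZT6 and ZT1 by 1.25 ± 0.26 for J3 (adjusted p = 0.00553) and 1.36 ± 0.26 for J2 (0.00322). Without WT 37 °C replicate 3 of ZT6 the difference of J3 was 1.07 (adjusted p = 0.0507), while that of J2 stayed under 0.05 without any 1 library. Both were lost with only the groups compared (adjusted p = 0.0594 for J3 and 0.128 for J2) and without the 4 ZT6 libraries with most genes (0.0525 and 0.112). J2 overlaps AT5G22050 by 371 bases, and the counting strand is not given in the sources used here. Other members given results also overlap a neighbouring gene, among them AT1G77930 (804 bases), AT5G25530 (634), AT3G05345 (427) and DJA5 (382). Shorter overlaps include those of AT2G20550 (294), AT5G03030 (234), J8 (224) and AT2G33735 (156).

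AT1G72416, AT3G14200, AT2G33735 and a cluster of AT5G37 loci share the J domain but no zinc finger repeats. AT1G72416 had 7.64 and 7.29 log2 CPM in prr7prr9 and 7.0 and 7.98 in WT at 37 °C at ZT6, against 2.45 and 2.2 in prr7prr9 and 3.05 and 3.33 in WT at 22 °C. In WT at ZT1 it had 5.04, 4.79, 4.45 and 4.67 at 37 °C, against 1.23, 1.84, 1.23 and 2.02 at 22 °C. It rose by 5.14 ± 0.49 in prr7prr9 and 4.30 ± 0.49 in WT at ZT6 and by 2.65 ± 0.23 in cca1lhy and 3.16 ± 0.23 in WT at ZT1 (adjusted p at most 0.000324), and the difference of the WT responses between the times did not pass the test (1.14 ± 0.54, adjusted p = 0.214). AT3G14200 had 6.47 and 7.22 log2 CPM in WT at 37 °C at ZT6, against 3.02 and 3.44 at 22 °C, and 6.70, 6.94, 6.85 and 7.02 at ZT1, against 3.94, 5.22, 5.34 and 4.68. It rose by 3.57 ± 0.37 in prr7prr9 and 3.62 ± 0.37 in WT at ZT6 and by 1.14 ± 0.24 in cca1lhy and 2.08 ± 0.24 in WT at ZT1, where the call in cca1lhy was lost without cca1lhy 22 °C replicate 2 (0.97). In cca1lhy at 22 °C it stood at 5.43, 4.99, 5.67 and 5.94, against 3.94, 5.22, 5.34 and 4.68 in WT, ranges that overlap (0.71 ± 0.24, adjusted p = 0.101). AT2G33735 rose by 2.87 ± 0.31 in prr7prr9 and 2.68 ± 0.31 in WT at ZT6, and by 2.08 ± 0.25 in cca1lhy and 1.20 ± 0.25 in WT at ZT1. Of the AT5G37 loci, AT5G37380 rose in WT by 1.44 ± 0.13 at ZT6 and 1.06 ± 0.16 at ZT1, and AT5G37440 by 1.68 ± 0.34 and 1.18 ± 0.20. AT5G37750, 87.5% identical to AT5G37440 over 240 residues, was called only at ZT6 (1.59 ± 0.42), on levels of 0.72 and 1.79 at 37 °C against −0.13 and −0.55 at 22 °C.

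Among members of chloroplasts and mitochondria some rose and some fell. The type A protein DJA5 of chloroplasts fell in WT at ZT1, with 5.53, 5.35, 4.86 and 4.86 log2 CPM at 37 °C against 6.92, 6.45, 6.48 and 6.73 at 22 °C. Its LFC was −1.19 ± 0.18 in cca1lhy and −1.49 ± 0.18 in WT at ZT1 (adjusted p = 1.24e-05 and 4.26e-07), and the values at ZT6 were −0.71 ± 0.19 in prr7prr9 and −0.72 ± 0.19 in WT, under the fold threshold. The related DJA6 rose at ZT6, by 1.23 ± 0.28 in prr7prr9 and 1.24 ± 0.28 in WT. Its call was lost in prr7prr9 without 37 °C replicate 3 or 22 °C replicate 2 and in WT without 37 °C replicate 2, 37 °C replicate 3 or 22 °C replicate 2, with LFCs over all leave-outs of 1.06 to 1.40 and 1.13 to 1.35 and adjusted p up to 0.0951 and 0.0729. Of the 5 type A members of organelles, 1 rose and none fell in WT at ZT6 and none rose and 1 fell at ZT1. AT5G03030, a TIM14-type subunit of the mitochondrial import motor, had 5.65, 5.99, 5.66 and 5.73 log2 CPM in WT at 37 °C at ZT1, against 3.92, 4.18, 3.22 and 3.78 at 22 °C. It rose by 2.05 ± 0.22 in cca1lhy and 1.98 ± 0.22 in WT (adjusted p = 6.41e-08 and 9.57e-08), and its value in WT at ZT6 was 0.81 ± 0.25. The other import motor members AT2G35795 and AT3G09700 had LFCs of 0.51 and 0.41 in WT at ZT1 and −0.31 and −0.10 at ZT6, and none of these was called.

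Among the small chloroplast J proteins J8, J11, DJC24, J20 and DJC66, J20 and J11 rose with heat at ZT1 in WT, while DJC24 fell and DJC66 rose at ZT6. J20 delivers the enzyme DXS of isoprenoid synthesis to Hsp70 in chloroplasts. At ZT1 it had 7.52, 7.28, 7.24 and 7.26 log2 CPM in cca1lhy and 7.40, 7.47, 7.17 and 7.13 in WT at 37 °C, against 4.89, 4.76, 5.03 and 4.78 in cca1lhy and 4.67, 4.75, 4.21 and 4.84 in WT at 22 °C. This was a rise by 2.46 ± 0.20 in cca1lhy and 2.68 ± 0.20 in WT (adjusted p = 6.67e-10 and 1.24e-10). At ZT6 J20 had 8.28 and 7.80 in WT at 37 °C, against 7.69 and 6.36 at 22 °C, a difference of 1.01 ± 0.35 that was not called (adjusted p = 0.0683). J11 had 6.71, 7.20, 6.65 and 6.89 in WT at 37 °C at ZT1, against 5.54, 5.50, 5.11 and 5.11 at 22 °C, and 7.58 and 7.31 at ZT6, against 8.07 and 8.41. It rose at ZT1 by 1.46 ± 0.17 in cca1lhy and 1.55 ± 0.17 in WT, while at ZT6 its values were −0.68 ± 0.24 in prr7prr9 and −0.80 ± 0.24 in WT, within the fold threshold. DJC24 fell at ZT6. Its levels at 37 °C were 2.13 and 2.17 in prr7prr9 and 1.84 and 2.30 in WT, against 3.15 and 3.71 in prr7prr9 and 3.74 and 3.23 in WT at 22 °C. Its LFC was −1.27 ± 0.29 in prr7prr9 and −1.42 ± 0.29 in WT at ZT6 (adjusted p = 0.0133 and 0.00783), and 0.19 ± 0.24 in cca1lhy and 0.76 ± 0.24 in WT at ZT1. The WT call of DJC24 was lost without 37 °C replicate 2 (−1.19, adjusted p = 0.0510) or 22 °C replicate 2 (−1.16, 0.0555), and that of prr7prr9 without 37 °C replicate 2 (−1.25), 37 °C replicate 3 (−1.29) or 22 °C replicate 3 (−0.99). DJC66 was called only in WT at ZT6 (1.28 ± 0.33), and not without 37 °C replicate 3 or 22 °C replicate 2 (LFCs over all leave-outs 0.84 to 1.73). J8 rose at ZT1 in cca1lhy (1.39 ± 0.25) and had 0.68 ± 0.25 in WT.

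Falls at 37 °C in WT at ZT6 were small, and most were close to the threshold. AT3G12170, a weakly expressed member, had the largest, −1.71 ± 0.36 (adjusted p = 0.00933), with 0.44 and −0.10 log2 CPM at 37 °C against 1.99 and 1.77 at 22 °C. Both ZRF1 genes, AT3G11450 and AT5G06110, which encode chromatin-bound J proteins with Myb-type domains, were lower at ZT6 (−1.0 ± 0.15 and −1.01 ± 0.29). AT3G11450 had 6.89 and 6.81 at 37 °C, against 7.74 and 7.97 at 22 °C, and AT5G06110 had 5.88 and 6.09, against 6.60 and 7.38. Only AT5G06110 was also called at ZT1, and there in cca1lhy (−1.08 ± 0.16), where without 22 °C replicate 1 it was −0.96. The auxilin-like AT4G36520, of the group that uncoats clathrin vesicles, fell by 1.18 on the log2 scale, AT1G74250 by 1.11 and ATJ6 by 1.01. These calls did not all hold when 1 WT library of ZT6 was left out. That of AT3G12170 was lost without 37 °C replicate 3 or 22 °C replicate 2 (LFCs over all leave-outs −1.98 to −1.44), AT3G11450 without 37 °C replicate 3 or 22 °C replicate 3 (−1.12 to −0.89), and AT5G06110 without either 37 °C library or 22 °C replicate 3 (−1.40 to −0.62). The call of AT4G36520 was lost without 22 °C replicate 3 (−0.85), AT1G74250 without either 37 °C library or 22 °C replicate 3 (−1.67 to −0.55), and ATJ6 without 37 °C replicate 2 or 22 °C replicate 3 (−1.33 to −0.69). At ZT1, GRV2, which acts in endosomal sorting, was lower in WT (−1.12 ± 0.33), with 4.53, 4.61, 5.43 and 5.57 at 37 °C against 6.45, 5.28, 6.45 and 6.43 at 22 °C. Those ranges overlap, the LFC was −0.95 without 37 °C replicate 1 and −0.97 without 37 °C replicate 2, and it was 0.04 ± 0.33 in cca1lhy.

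Groups with other duties held few called members or none in WT at 37 °C. The Sec63-type ERDJ2A and ERDJ2B of the endoplasmic reticulum had LFCs of −0.43 and −0.18 at ZT6 and −0.44 and 0.05 at ZT1. The endoplasmic reticulum list held only these 2 members. ERDJ3A and ERDJ3B were left aside and the J protein P58IPK was not a member, so the list does not stand for that compartment. ARG1, known for gravitropism, had −0.88 ± 0.19 at ZT6 and −0.30 ± 0.19 at ZT1. The 6 members described as cysteine-rich, among them LQY1 of photosystem II repair, spanned −1.05 to 0.35 at ZT6 and −0.36 to 0.21 at ZT1. Of the 5 auxilin-like members, 1 fell at ZT6 and none changed at ZT1.

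**Figure D2:**
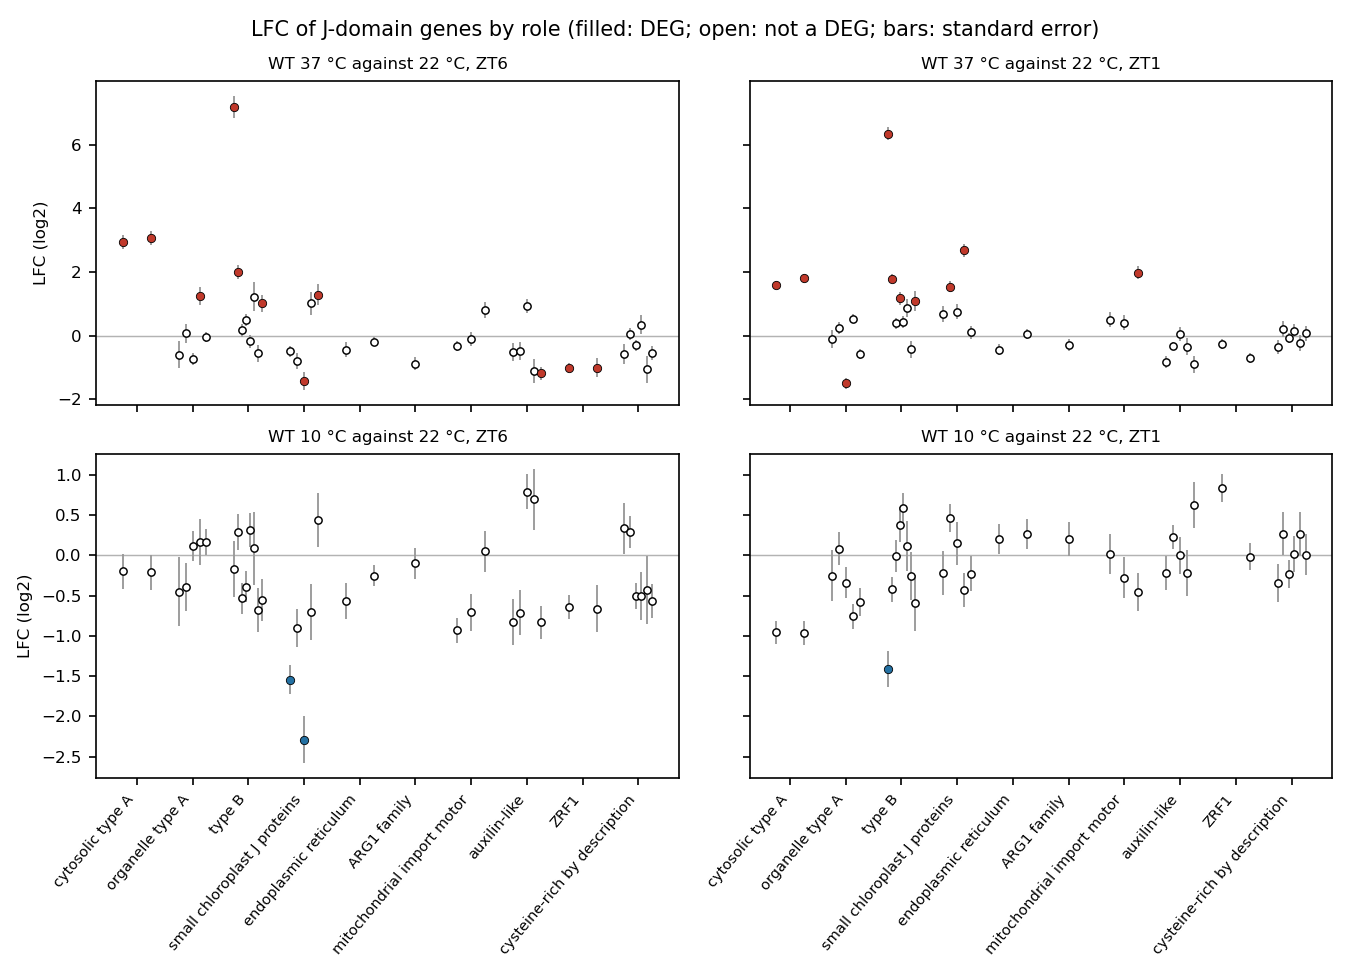
LFC (log2, vertical axes) of 37 °C against 22 °C (top) and 10 °C against 22 °C (bottom) in WT at ZT6 (left) and ZT1 (right) for the members of each role named along the horizontal axis, where filled points are DEGs, open points are not, and bars are standard errors. The cytosolic type A pair lies at 2.95 and 3.06 at 37 °C at ZT6 and at 1.59 and 1.81 at ZT1, while small chloroplast members lie on both sides of 0 at ZT6.

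The mutants shared most of the heat response of the members. In prr7prr9 at ZT6, 15 members were higher and 4 lower at 37 °C than at 22 °C (12.4% and 3.31%, beside 6.66% and 7.45% of all genes), and all 15 higher members were among the 17 of WT. Of the 4 lower members, DJC24 was shared with the 7 of WT, and AT3G04980 (−2.10 ± 0.53), AT4G19590 (−1.43 ± 0.41) and AT2G18465 (−1.07 ± 0.25) were called in prr7prr9 only, with −1.23, −1.05 and −0.71 in WT. No leave-out is given for AT3G04980, AT4G19590 and AT2G18465, and the prr7prr9 count was 15 to 18 without any 1 library. In cca1lhy at ZT1, 17 members were higher and 3 lower (14.5% and 2.56%, beside 6.44% and 6.28%), 16 of the 17 were among the 18 of WT, and DJA5 was the shared lower member. No member had a called interaction of genotype with 37 °C, in prr7prr9 (0.00321% of all genes called) or in cca1lhy (0.913% called), by limma. At an unadjusted p under 0.05 stood 4 members in prr7prr9 (3.31%, beside 3.48% of all genes) and 14 in cca1lhy (12.0%, beside 13.1%). The smallest adjusted p of these interactions was 0.0762, for AT5G53150 in cca1lhy (−1.09 ± 0.29). Leaving out cca1lhy 22 °C replicate 4 or WT 22 °C replicate 1 gave 1 called interaction in cca1lhy. Without the 4 ZT6 libraries with most genes, 4 members were called at 37 °C in prr7prr9 and 2 interactions with 37 °C appeared.

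After 1 h at 10 °C the members with the clearest change were AT5G23240, J8 and DJC24, which fell at ZT6. In WT at ZT1 J8 and DJC24 were not called. AT5G23240 was near the level of no reads there, where a fall was not detectable. These contrasts use the same 22 °C libraries as those of heat. In WT at ZT6, 2 members were higher and 5 lower (1.65% and 4.13%, beside 3.94% and 2% of all genes). At ZT1 1 was higher and 2 lower (0.855% and 1.71%, beside 1.03% and 0.84%). Lists this short shared no gene, which is not read as a difference between the times. The median LFC at ZT6 was −0.19 over the members and 0.00 over all genes, and at ZT1 it was 0.02 and 0.01. In prr7prr9, none was higher and 5 were lower (4.13%, beside 2.19% higher and 1.42% lower of all genes), of which J8, DJC24 and AT5G23240 were also lower in WT. In cca1lhy, none was higher and AT3G14200 and J2 were lower (beside 0.983% and 1.16% of all genes). The WT count at ZT6 was 13 without 22 °C replicate 2. That of prr7prr9 was 2 without either 10 °C library and 3 without either 22 °C library, that of cca1lhy 4 without 10 °C replicate 3 and 1 without 10 °C replicate 4, and both ZT6 counts were 0 without the 4 libraries with most genes and 0 with only the groups compared, where AT5G23240, J8 and DJC24 in WT had adjusted p of 0.115, 0.166 and 0.140.

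AT5G23240, a member with an N-terminal J domain, had 1.41 and 1.41 log2 CPM in WT at 10 °C at ZT6, against 4.59 and 5.27 at 22 °C, and in prr7prr9 2.91 and 3.30 at 10 °C, against 4.41 and 4.23 at 22 °C. The groups did not overlap in either genotype, and the 10 °C libraries of prr7prr9 lay above those of WT. The LFC was −1.21 ± 0.25 in prr7prr9 (adjusted p = 0.0272) and −3.52 ± 0.25 in WT (0.000145). The interaction was 2.31 ± 0.36 and did not pass the test (adjusted p = 0.0802), nor did the level at 10 °C in prr7prr9 against WT (1.69 ± 0.25, adjusted p = 0.0507). The prr7prr9 call was lost without any 1 of its 4 libraries (LFC −1.41 to −1.02, adjusted p 0.0947 to 0.209). At ZT1 AT5G23240 was near the level of no reads in WT at all temperatures, with 1.82, 1.80 and 1.62 at 10 °C against 1.36, 1.84, 2.13 and 1.53 at 22 °C. It overlaps the pseudogene AT5G23235 by 1721 bases.

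J8 had 4.24 and 4.23 log2 CPM in prr7prr9 at 10 °C at ZT6, against 6.78 and 6.94 at 22 °C, and in WT 5.32 and 5.58, against 7.22 and 6.76. It fell by 2.62 on the log2 scale in prr7prr9 (adjusted p = 0.000191) and by 1.54 in WT (0.00122). At 10 °C it was the only member called between prr7prr9 and WT (−1.21 ± 0.18, adjusted p = 0.0499), and that call was lost without any 1 of the 4 libraries (LFC −1.35 to −1.08, adjusted p 0.101 to 0.520). DJC24 had 0.91 and 0.80 in prr7prr9 at 10 °C and 1.1 and 1.29 in WT, against 3.15 and 3.71 in prr7prr9 and 3.74 and 3.23 in WT at 22 °C. Its LFC was −2.57 ± 0.29 in prr7prr9 and −2.29 ± 0.29 in WT (adjusted p = 0.00156 and 0.00184). J20 and J11 were called in prr7prr9 (−1.67 ± 0.35 and −1.08 ± 0.24) and had −0.70 ± 0.35 and −0.90 ± 0.24 in WT. The call of J20 was lost without any 1 of the 4 prr7prr9 libraries (LFC −1.75 to −1.60), and that of J11 without either 10 °C library or 22 °C replicate 3 (−1.42 to −0.73 over all leave-outs). At 10 °C 4 of the 5 small chloroplast members were called lower in prr7prr9 and 2 of 5 in WT, beside 1.42% and 2% of all genes. J20 and J11 were negative in WT too, where they stayed within the fold threshold. The counts therefore do not show a difference between the genotypes, and none of these members passed the interaction test (smallest adjusted p among them 0.301, for J8).

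Other members at 10 °C were AT1G56300, which fell in WT at ZT6 (−1.46 ± 0.20, adjusted p = 0.00306), with 5.63 and 5.77 log2 CPM against 7.41 and 6.91 at 22 °C, and had −0.64 ± 0.20 in prr7prr9. NdhT, a subunit of the chloroplast NDH complex, rose in WT at ZT6 (1.40 ± 0.27), as did AT3G05345 (1.47 ± 0.19, with 3.77 and 3.73 against 2.18 and 2.38). The call of NdhT was lost without 10 °C replicate 1 or 22 °C replicate 3 (LFCs over all leave-outs 1.07 to 1.73), and that of AT3G58020 (−1.04 ± 0.22) without either 10 °C library or 22 °C replicate 3 (−1.17 to −0.91). At ZT1, AT3G14200 fell in cca1lhy (−1.75 ± 0.24) and in WT (−1.75 ± 0.26), with 3.09, 2.99 and 3.05 in WT at 10 °C against 3.94, 5.22, 5.34 and 4.68 at 22 °C. AT2G20560 fell in WT (−1.41 ± 0.22, adjusted p = 0.000193) and had −0.84 ± 0.20 in cca1lhy. J2 and J3 were lower by almost 1 log2 unit in WT at ZT1 (−0.95 ± 0.14 and −0.96 ± 0.15, adjusted p = 0.000129 and 0.000207), under the fold threshold, and J2 was called in cca1lhy (−1.09 ± 0.13), though not without 10 °C replicate 4 (−0.99). At ZT6 J2 and J3 had −0.19 and −0.21 in WT. AT5G43260 was the only member higher in WT at 10 °C at ZT1 (1.1 ± 0.30), and its call was lost without any 1 of the 3 libraries at 10 °C or without 22 °C replicate 1, 3 or 4 (LFC 0.94 to 1.40, adjusted p up to 0.143).

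**Figure D3:**
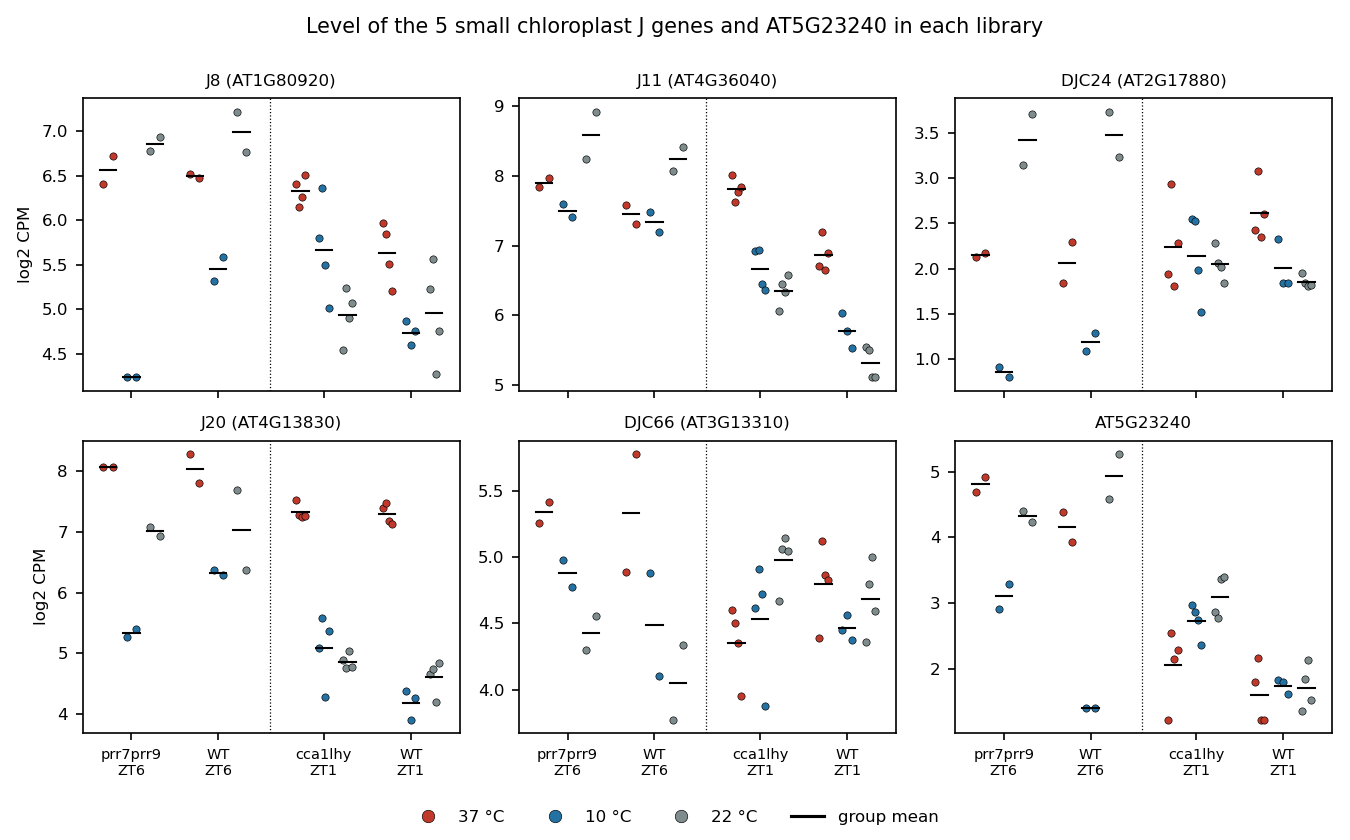
Level (log2 CPM, vertical axes) of J8, J11, DJC24, J20, DJC66 and AT5G23240 in each library at 37, 10 and 22 °C for prr7prr9 and WT at ZT6 (left of the dotted line) and cca1lhy and WT at ZT1 (right), where points are libraries and bars group means. The libraries at 10 °C of J8 and DJC24 lie under those at 22 °C at ZT6 in both genotypes, and AT5G23240 at 10 °C lies at 1.41 in both WT libraries of ZT6.

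The few members called between cca1lhy and WT at ZT1 were higher in cca1lhy, while the members as a whole were not shifted upward. The paper warns that peak expression comes earlier in cca1lhy and later in prr7prr9. A difference at 1 time of day can therefore reflect a shift in timing, which was not tested here. Of 117 members, 1 was called at 37 °C (0.855%), 2 at 10 °C (1.71%) and 5 at 22 °C (4.27%). Over all genes, 2.13%, 1.57% and 1.72% were called in either direction, so the direction of the member calls has no background share beside it. The median LFC of the members was −0.01 at 37 °C, 0.00 at 10 °C and −0.03 at 22 °C, beside 0.00 over all genes. Of 117 members, 52, 59 and 54 had a positive LFC. AT1G56300 was called at each temperature. It had 6.98, 7.04, 7.13 and 7.09 log2 CPM in cca1lhy and 5.41, 5.50, 5.30 and 5.34 in WT at 37 °C, and 4.64, 4.97, 4.88 and 5.07 in cca1lhy and 2.79, 2.67, 2.95 and 2.97 in WT at 22 °C. At 10 °C it had 4.35, 4.72, 4.05 and 4.43 in cca1lhy and 2.69, 3.28 and 2.84 in WT. The genotypes did not overlap, and the differences were 1.67 ± 0.15, 2.04 ± 0.15 and 1.45 ± 0.16 (adjusted p = 1.09e-07, 2.93e-09 and 3.03e-06) at 37, 22 and 10 °C. AT1G56300 also rose with heat, by 2.17 ± 0.15 in cca1lhy and 2.54 ± 0.15 in WT at ZT1 and by 1.85 ± 0.20 in prr7prr9 and 1.27 ± 0.20 in WT at ZT6. It shares 775 bases with AT1G56290.

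AT5G53150 had 6.17, 6.24, 6.94 and 6.83 log2 CPM in cca1lhy at 10 °C, against 4.52, 4.23 and 4.44 in WT, and 6.53, 5.78, 5.99 and 5.51 at 22 °C, against 4.60, 3.77, 4.00 and 4.13. The difference was 2.15 ± 0.22 at 10 °C and 1.83 ± 0.21 at 22 °C (adjusted p = 8.12e-07 and 2.19e-06), and 0.74 ± 0.21 at 37 °C, under the fold threshold. AT5G23240 (1.39 ± 0.26), AT3G62190 (1.11 ± 0.23) and J11 (1.04 ± 0.17) were called at 22 °C. AT3G62190 had 4.08, 4.16, 4.05 and 4.10 in cca1lhy, against 2.98, 3.03, 2.79 and 3.14 in WT, and J11 had 6.06, 6.45, 6.34 and 6.58, against 5.54, 5.50, 5.11 and 5.11, so that no library overlapped in either. J11 was also higher at 37 °C (0.95 ± 0.17) and 10 °C (0.89 ± 0.18), under the fold threshold, and its call at 22 °C was lost on fold without cca1lhy replicate 4 (0.96), WT replicate 3 (0.97) or WT replicate 4 (0.97). The count at 37 °C was 2 without cca1lhy replicate 2 or 4 or WT replicate 2, 3 or 4, and that at 10 °C was 5 without cca1lhy replicate 3 and 4 without cca1lhy replicate 4. Interactions of cca1lhy with 10 °C were called for no member (0.0117% of all genes called), and 5 members (4.27%, beside 4.18% of all genes) stood at an unadjusted p under 0.05.

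The evening element, the binding sequence of CCA1 and LHY, was in the promoters of 10 of the 125 members (8%), beside 2.82% of all promoters. Windows of 30 bases around it are shown for AT1G56300, which differed between cca1lhy and WT at each temperature, and for 3 other members named here, with the element in capitals in the orientation in which it reads along the gene's strand (AAAATATCT or its reverse complement AGATATTTT). All 4 genes are on the minus strand of TAIR10.1. The windows are chr1:21080403-21080432 for AT1G56300 (element from +2), chr3:4714810-4714839 for AT3G14200 (−131), chr3:4311638-4311667 for DJC66 (−28) and chr5:17358317-17358346 for AT5G43260 (+5).
AT1G56300: gtaatatcatAAAATATCTtaaattgaaaa
AT3G14200: ctatttgaatAGATATTTTttgttctaaga
DJC66: ttagcttcctAGATATTTTttttcaaaaca
AT5G43260: cacttgtagaAGATATTTTacacacacagc
Of these 10 members, 1 was called between cca1lhy and WT at 22 °C (AT1G56300), with LFCs of −0.23 to 2.04 and a median of 0.28, beside 4 of the 107 other members and a median of −0.03. At 37 °C the LFCs between the genotypes were −0.45 to 1.67 with a median of −0.01, the same median as in the other members. AT5G53150, AT5G23240, AT3G62190 and J11 held no such element in the window. These are counts of letters and not of bound sites.

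**Figure D4:**
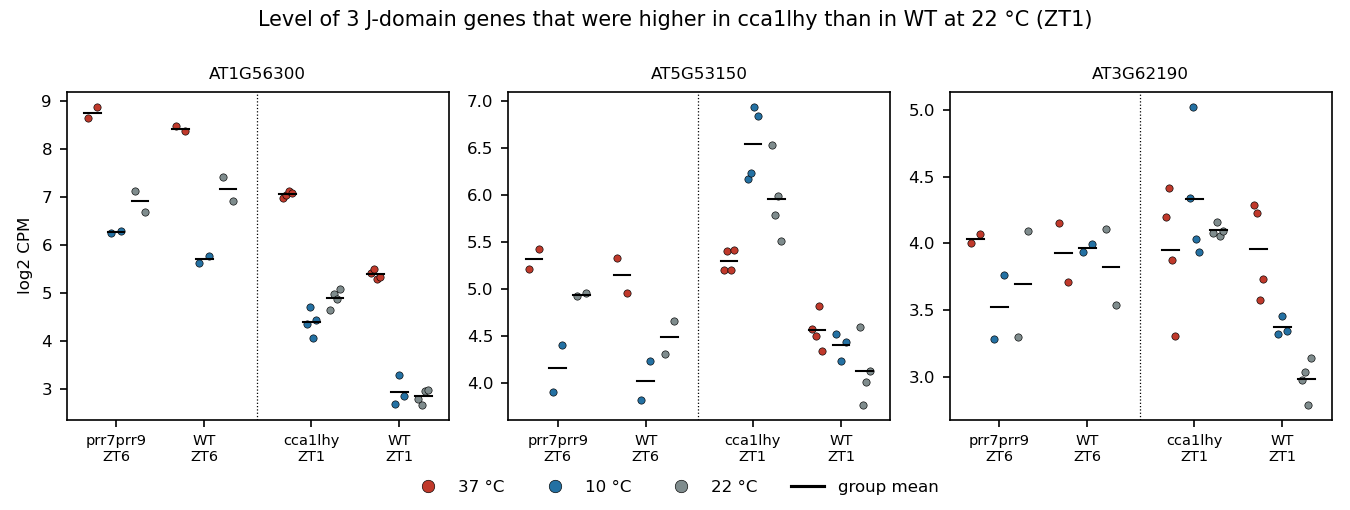
Level (log2 CPM, vertical axes) of AT1G56300, AT5G53150 and AT3G62190 in each library at 37, 10 and 22 °C for prr7prr9 and WT at ZT6 (left of the dotted line) and cca1lhy and WT at ZT1 (right), where points are libraries and bars group means. At 22 °C at ZT1 the cca1lhy libraries of AT1G56300 lie between 4.64 and 5.07 and those of WT between 2.67 and 2.97.

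Between prr7prr9 and WT, 1 member was called at any of the 3 temperatures. At 37 °C no member was called between prr7prr9 and WT (0.145% of all genes called), at 22 °C none (0.286%) and at 10 °C J8 alone (0.826% of 121 members, beside 0.141%). At an unadjusted p under 0.05 stood 3 members at 37 °C (2.48%, beside 5.68% of all genes) and 5 at 22 °C (4.13%, beside 6.8%). At 22 °C the smallest adjusted p was 0.332, for AT3G05345 (0.69 ± 0.19). No interaction with 10 °C was called (0.0835% of all genes called), except 1 without WT 22 °C replicate 2, and 12 members (9.92%, beside 7.17% of all genes) stood at an unadjusted p under 0.05. With 2 libraries a group, these results do not show that the genotypes were alike.

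The response of WT to temperature was then compared between ZT6 and ZT1 as the difference of the LFCs, called at an adjusted p under 0.05. At 37 °C the small chloroplast members J11, DJC24, J20 and J8 had lower responses at ZT6 and the cytosolic pair J2 and J3 higher ones. DJC66, the remaining small chloroplast member, had no called difference. At 10 °C AT5G23240 and DJC24 had much lower responses at ZT6, but AT5G23240 was near the level of no reads at ZT1, where a fall was not detectable. At 37 °C 15 of 117 members were called in either direction, beside 2420 of 25631 genes (9.44%). Of these members, 7 had a higher response at ZT6 and 8 a lower one (5.98% and 6.84% of 117). At 10 °C 20 of 117 were called in either direction, beside 2792 of 25631 genes (10.9%). Of these members, 5 were higher and 15 lower (4.27% and 12.8% of 117). Over all genes the directions were not counted apart, so the member shares by direction have no background share beside them. The median difference at 10 °C was −0.24 over the members and −0.04 over all genes. ZT6 and ZT1 libraries differ in flow cell number, depth, replicate number and normalization, which cannot be told apart from the time of day. The count at 37 °C was 5 without WT 37 °C replicate 3 of ZT6, 7 without WT 22 °C replicate 2 of ZT6 and 6 without the 4 libraries with most genes, and that at 10 °C was 11 without WT 10 °C replicate 1 of ZT6, 13 without WT 10 °C replicate 2 or 3 of ZT1, and 16 without those 4. With only the groups compared, 5 differences were called at 37 °C, among them J11, DJC24, AT1G71000 and AT2G33735, and 10 at 10 °C.

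The largest difference at 37 °C was that of J11 (−2.34 ± 0.29, adjusted p = 5.26e-05), whose LFC was −0.80 at ZT6 and 1.55 at ZT1, followed by DJC24 (−2.17 ± 0.38, adjusted p = 0.000852), with −1.42 and 0.76. Both calls held without any 1 library. J20 had −1.67 ± 0.40 (adjusted p = 0.0164), with LFCs of 1.01 and 2.68, and without WT 37 °C replicate 3 of ZT6 the difference was −1.42 (adjusted p = 0.125). AT1G56300 rose less at ZT6 (−1.27 ± 0.25, adjusted p = 0.00341), with LFCs of 1.27 and 2.54, at a level at 22 °C of 7.41 and 6.91 at ZT6. J8 had −1.17 ± 0.31 (adjusted p = 0.0150), lost without WT 37 °C replicate 3 or 22 °C replicate 2 of ZT6 or 22 °C replicate 3 of ZT1 (differences over all leave-outs −1.40 to −0.94). AT5G03030 had −1.17 ± 0.33 (adjusted p = 0.0290), lost without either 37 °C library or 22 °C replicate 2 of ZT6 or 37 °C replicate 2 or 22 °C replicate 3 of ZT1 (−1.34 to −0.99). AT3G11450 had −0.74 ± 0.22 (adjusted p = 0.0342), lost without either 37 °C library or 22 °C replicate 3 of ZT6 or 37 °C replicate 1 or 2 or 22 °C replicate 3 of ZT1 (−0.94 to −0.61).

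Among the members with a higher response to heat at ZT6, AT1G71000 had the largest difference (2.82 ± 0.69, adjusted p = 0.0283), which was lost without any 1 of the 4 WT libraries of ZT6 (2.47 to 3.17 over all leave-outs, adjusted p up to 0.145). In WT at 22 °C at ZT1 AT1G71000 was at or near the level of no reads, so its rise there could be understated. With the lowest value of ZT6 raised to that of ZT1 the difference was 2.34. Both 22 °C groups then lie at or near that lowest value. The 2.34 thus rests mostly on 37 °C levels of separately normalized times, which are not compared here. AT3G14200 had 1.53 ± 0.44 (adjusted p = 0.0371) and AT2G33735 1.49 ± 0.39 (0.0202). The call of AT3G14200 was lost without WT 37 °C replicate 3 or either 22 °C library of ZT6, or 37 °C replicate 1 or 22 °C replicate 2 or 3 of ZT1 (1.15 to 1.91), and that of AT2G33735 without any 1 of the 4 WT libraries of ZT6 (1.34 to 1.63). GRV2 (1.47 ± 0.39) was lost without WT 37 °C replicate 3 (1.38) or 22 °C replicate 2 (1.25) of ZT6. AT3G05345 (1.01 ± 0.28) was lost without WT 37 °C or 22 °C replicate 2 of ZT6 or 37 °C replicate 1 of ZT1 (0.86 to 1.15). J2 and J3 are given above.

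At 10 °C AT5G23240 stood furthest apart (−3.55 ± 0.38, adjusted p = 1.22e-07), with LFCs of −3.52 at ZT6 and 0.03 at ZT1, where it was near the level of no reads. DJC24 (−2.44 ± 0.39), AT1G56300 (−1.55 ± 0.26), AT3G11450 (−1.48 ± 0.23), AT4G36520 (−1.46 ± 0.36), J11 (−1.36 ± 0.30) and J8 (−1.33 ± 0.33) followed, with adjusted p at most 0.00600, and these calls and that of AT5G23240 held without any 1 library. With only the groups compared, those of J8 (adjusted p = 0.0745) and AT4G36520 (0.0748) were lost, the second also without the 4 ZT6 libraries with most genes (0.0545). AT3G05345 (1.82 ± 0.29) and NdhT (1.73 ± 0.35) had higher responses at ZT6, which held without any 1 library, and with only the groups compared that of NdhT was lost (adjusted p = 0.0566). AT3G14200 (1.56 ± 0.45, adjusted p = 0.0309) was lost without WT 10 °C replicate 1 or either 22 °C library of ZT6 or 22 °C replicate 2 or 3 of ZT1 (1.04 to 2.08). AT1G77930 (1.07 ± 0.32) was lost in 7 and DJA7 (0.75 ± 0.24) in 8 of the leave-outs, AT2G35795 (−0.95 ± 0.30) in 7 and AT3G58020 (−1.05 ± 0.33) in 8, each among libraries of both times.

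**Figure D5:**
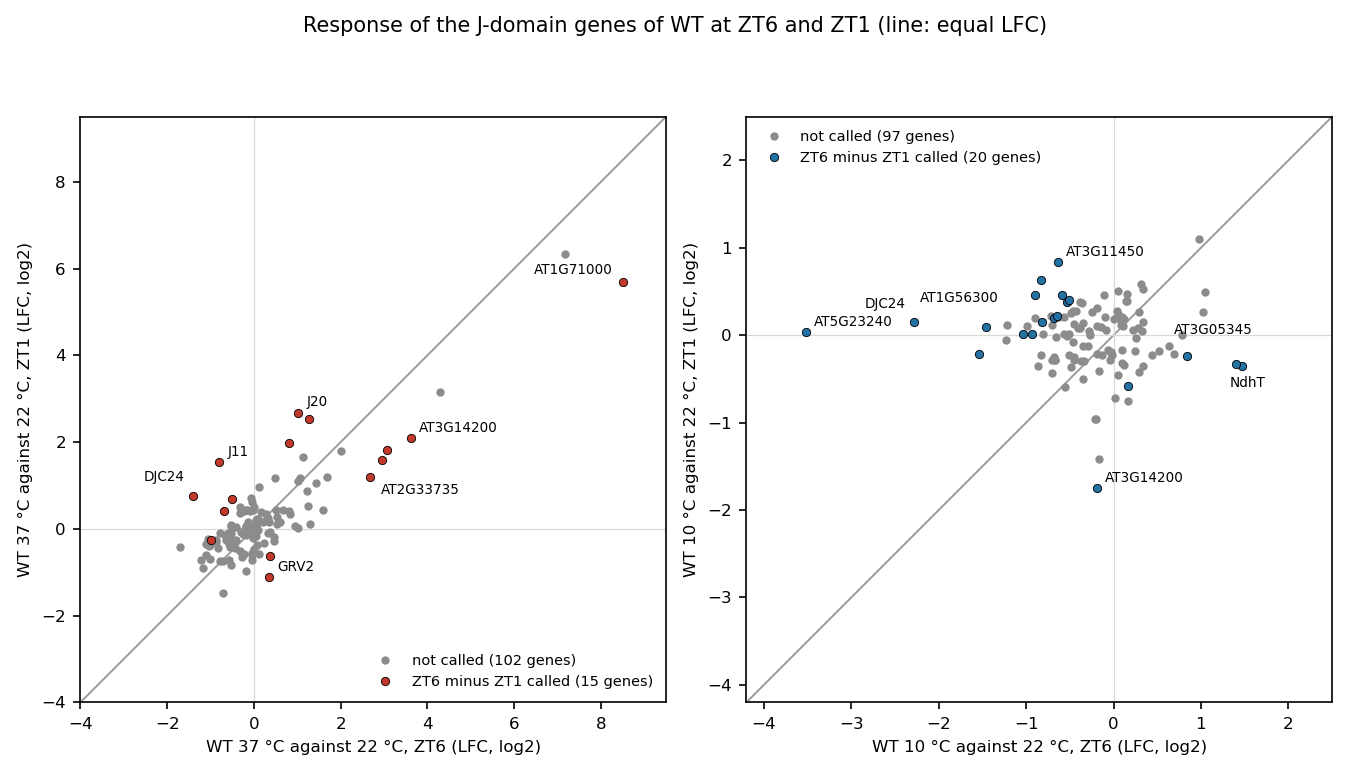
LFC of WT at ZT6 (horizontal axes) against that at ZT1 (vertical axes) for the 117 members tested at both times, at 37 °C against 22 °C (left) and 10 °C against 22 °C (right), where coloured points have a called difference between the times and the line marks equal LFCs. J11 and DJC24 lie left of 0 at ZT6 and above 0 at ZT1 at 37 °C, and AT5G23240 lies at −3.52 and 0.03 at 10 °C.

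Hsp70 proteins and their nucleotide exchange factors, the partners of the J-domain proteins, were taken as a list of 23 genes. At 37 °C 15 of 23 were higher and none lower in WT at ZT6 (median LFC 2.08), and 13 and none at ZT1 (1.87), beside 7.25% and 6.97% of all genes higher. In both prr7prr9 and cca1lhy 15 were higher and none lower, beside 6.66% and 6.44% of all genes higher. At 10 °C none was higher and 2 were lower in WT at ZT6, and none and 6 at ZT1, beside 2% and 0.84% of all genes lower. The medians of the J-domain members tested at 37 °C were −0.03 at ZT6 and 0.04 at ZT1 in WT. The partner list was chosen with earlier results of these data known, and its difference from the members was not tested.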

How the data were processed

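RNA from 35 libraries of whole seedlings was sequenced by the authors, trimmed with cutadapt, aligned with TopHat2 (version 2.0.14), which ran Bowtie2 (version 2.2.5), to TAIR10, and counted over Araport11 genes. The deposited values are log2 CPM, for which the authors added 5 reads to each count and normalized ZT6 and ZT1 separately (edgeR, voom and quantile normalization). The 5 added reads compress changes of weak genes. Deposited columns of the authors' own comparisons hold fold changes and p-values and were not used. Depth was estimated from the spacing of low values. At ZT1 the labels' replicates are biological according to the study, and at ZT6 they are only called replicates, so p-values measure the spread between these libraries.

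Genes that exceeded the table minimum in 3 or more libraries (ZT1) or 2 or more (ZT6) were fitted with limma 3.58.1 (R 4.3.3, trend), all 6 groups of a time together, with p-values adjusted by Benjamini-Hochberg over all genes tested. DEGs needed an adjusted p under 0.05 and an LFC over 1 in size, and interactions and differences between the times only the p. Tests were checked on simulated data. Alternatives were no trend, no filter, a replicate block, a fold threshold of 1.5, only the groups compared, a raised lowest value at ZT6 and leaving out each library, and, chosen after seeing the data, leaving out the 4 ZT6 libraries with most genes above the lowest value.

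The members and lists were chosen with earlier results of these data known. Members were named where they had the 8 largest rises or 6 largest falls called at 37 °C in WT, the 5 largest called changes at 10 °C, a called genotype, interaction or time difference (up to 6 a direction), or a place in a role list. AT2G20550, AT2G18465, AT3G04980, AT4G19590 and the AT5G37 loci were added after their values were seen, and no leave-out is given for them. Sequences are from RefSeq (TAIR10.1), in which all 125 members were matched by locus.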

Additional observations from a re-analysis of the deposited data

Results flagged for a closer look

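In 6 of 85 groups of 4 libraries, over 17 members, 1 library stood apart from the other 3, where chance alone gives about 1 in 20. These were J2 in cca1lhy at 10 °C (replicate 4, 5.57 log2 CPM), AT1G71000 in cca1lhy at 10 °C (replicate 1, 1.35) and in WT at 22 °C (replicate 1, 1.36), J20 in cca1lhy at 37 °C (replicate 1, 7.52), and AT3G12170 in cca1lhy (replicate 4, 1.73) and WT (replicate 2, 2.17) at 37 °C. The AT1G71000 groups have the other 3 libraries at the level of no reads. Any reads in 1 library set it apart there, so the rate of 1 in 20 does not hold for such groups.

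The heat response of WT differed between ZT6 and ZT1 (difference of LFCs, limma, adjusted p under 0.05) for 15 members. It was higher at ZT6 for AT1G71000 (2.82), AT3G14200 (1.53), AT2G33735 (1.49), GRV2 (1.47), J2 (1.36), J3 (1.25) and AT3G05345 (1.01), and lower for J11 (−2.34), DJC24 (−2.17), J20 (−1.67), AT1G56300 (−1.27), J8 (−1.17), AT5G03030 (−1.17), AT2G21510 (−1.12) and AT3G11450 (−0.74). The response to 10 °C differed for 20 members. It was higher at ZT6 for AT3G05345 (1.82), NdhT (1.73), AT3G14200 (1.56), AT1G77930 (1.07) and DJA7 (0.75), and lower for 15 members, of which the 6 with the largest differences were AT5G23240 (−3.55), DJC24 (−2.44), AT1G56300 (−1.55), AT3G11450 (−1.48), AT4G36520 (−1.46) and J11 (−1.36).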

How the results depend on the processing

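No result changed direction under any alternative run. Of 119 calls of named members, 76 held without any 1 library and 43 were lost in at least 1 leave-out. With a fold threshold of 1.5 the counts of called members were 11 in WT and 11 in prr7prr9 at 37 °C at ZT6, 3 and 3 at 10 °C, 12 in WT and 11 in cca1lhy at 37 °C at ZT1, 1 and 1 at 10 °C, 1 at 10 °C and 2 at 22 °C between cca1lhy and WT, and 0 at 10 °C between prr7prr9 and WT. With only the groups compared they were 5 at 37 °C and 0 at 10 °C in WT at ZT6, 0 in prr7prr9 at 10 °C, 0 between prr7prr9 and WT at 10 °C, 1 in WT at 10 °C at ZT1, and 5 and 10 for the differences between the times at 37 and 10 °C. Without a filter 2 members were called in prr7prr9 at 10 °C. Between prr7prr9 and WT at 10 °C, 0 were called without a filter, without the trend and with the replicate block. The cause of these changes was not tested. Without the 4 ZT6 libraries with most genes, chosen after seeing the data, the counts were 4 in WT and 4 in prr7prr9 at 37 °C, 0 and 0 at 10 °C, 0 between prr7prr9 and WT at 10 °C, 2 for the interaction of prr7prr9 with 37 °C, and 6 for the difference between the times at 37 °C.

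The replicate numbers were not taken to pair the libraries, since not every pair of same-numbered libraries had a correlation over 0.1. This rule does not settle whether the libraries were paired. At ZT6, with 2 libraries a group, the deviations within a group are equal and opposite, so the correlations depend on one another. The deviations of same-numbered libraries had a median correlation of 0.12 over 22 pairs at ZT6 (lowest −0.398, 12 over 0.1), against −0.0297 over 38 pairs of different number (8 over 0.1), and 0.0183 over 55 pairs at ZT1 (lowest −0.331, 16 over 0.1), against 0.00187 over 165 pairs (34 over 0.1). With the replicate block 25 members were called in WT and 19 in prr7prr9 at 37 °C and 6 and 3 at 10 °C at ZT6, 20 in WT and 20 in cca1lhy at 37 °C and 3 and 2 at 10 °C at ZT1, 1, 3 and 5 between cca1lhy and WT at 37, 10 and 22 °C, and 17 and 16 for the differences between the times. Calls lost with the block were NdhT (adjusted p = 0.0701) and AT3G58020 (0.0991) in WT at 10 °C at ZT6, AT5G23240 (0.136) and J11 (0.0827) in prr7prr9 at 10 °C, J8 between prr7prr9 and WT at 10 °C (0.111), and AT1G77930 (0.127), DJA7 (0.0537) and AT3G58020 (0.0998) between the times at 10 °C.

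Leaving out 1 library at a time gave 14 to 20 called members in WT and 15 to 18 in prr7prr9 at 37 °C at ZT6, and 5 to 13 and 2 to 3 at 10 °C. At ZT1 it gave 19 to 23 in WT and 18 to 21 in cca1lhy at 37 °C, and 2 to 4 and 1 to 4 at 10 °C. Between cca1lhy and WT it gave 1 to 2 at 37 °C, 2 to 5 at 10 °C and 4 to 5 at 22 °C, with 0 to 1 for the interaction with 37 °C and 0 to 0 with 10 °C. Between prr7prr9 and WT it gave 0 to 0 at each temperature and for the interaction with 37 °C, and 0 to 1 with 10 °C. For the differences between the times it gave 5 to 18 at 37 °C and 11 to 19 at 10 °C. With 2 libraries a group at ZT6 and shallower libraries at ZT1, weak members such as AT5G23240 at ZT1 stood at or near the level of no reads, where a fall was not detectable.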
